A study of Rattus norvegicus with 6 samples.

Results

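The genes described here are those of glutathione metabolism and of the enzymes that remove reactive oxygen species, with NRF2 (Nfe2l2), its inhibitor KEAP1 and the metallothioneins. They were chosen by their symbols alone, as the rows whose symbol starts with, or is, one of the usual names of these families, and 58 of the 14607 genes of the table were members. RNA-Seq had been carried out on 3 samples of vascular smooth muscle cells (VSMCs) and 3 samples of mid-capillary pericytes (mcPCs) from the cortex of male Sprague-Dawley rats aged 4 to 5 weeks. No treatment or mutation separated the groups, but the cells were handled differently. VSMCs had been sorted from arterioles held back by a filter, by binding of a lectin after endothelial and myeloid cells had been removed. Cortex had first been digested with the mild enzyme Liberase DL. Only the arterioles were then digested again, with Liberase TM and trypsin, so this step cannot be told apart from cell type. mcPCs had not been sorted by a marker of their own but were the cells of the filtrate that remained after endothelial cells, myeloid cells, astrocytes and oligodendrocytes had been depleted. Each of 3 isolations pooled 10 rats.

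For each gene the table holds a mean over the samples of a cell type, as the authors computed it, so no SD between isolations and no test of a difference can be given. Abundance is given as TPM, a share of all transcripts corrected for transcript length, which allows genes to be compared within a cell type. The difference between cell types is given as the log2 ratio of the authors' mean normalized counts, mcPCs over VSMCs, with a pseudocount of 1, and a gene is called higher in a cell type when it is at least 2-fold apart. Reads assigned to genes averaged 62.0 M (M, 1e6) in a sample of VSMCs and 48.0 M in one of mcPCs. Intervals in square brackets are 95% intervals for counting error only, on the log2 ratio, and leave out the spread between isolations.

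Glutathione is a tripeptide thiol that cells build from glutamate, cysteine and glycine and use to reduce peroxides, to repair oxidised proteins and to conjugate electrophiles. The thioredoxin and peroxiredoxin proteins form a parallel thiol system, superoxide dismutases turn superoxide into hydrogen peroxide, and catalase, glutathione peroxidases and peroxiredoxins remove that peroxide. NRF2 is the transcription factor that induces many of these genes when KEAP1 releases it. In the brain, γ-glutamyl transferase is a classical enzyme marker of the capillary wall.

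The markers of other cells differed between the samples. Erythrocyte genes had 23 of 35 named genes in the table, of which 22 were higher in mcPCs, and their summed TPM was 0.738% of all TPM in VSMCs and 55.0% in mcPCs. Endothelial genes (16 of 21 listed higher in mcPCs, summed TPM 697 and 316), microglial and leukocyte genes (9 of 9, 2.36 and 205), astrocyte genes (6 of 8, 1093 and 585), oligodendrocyte genes (6 of 7, 19.8 and 20.7), neuronal genes (6 of 6, 3.42 and 23.5) and perivascular fibroblast genes (5 of 6, 144 and 238) are given as summed TPM in VSMCs and then mcPCs. The endothelial sum was mostly that of Esam (487 and 184) and Slc2a1 (115 and 23.9), both within 2-fold. Cldn5 (0.643 and 15.4) and Vwf (0.678 and 8.03) were among the 16 higher in mcPCs, and none of the 21 was higher in VSMCs. Smooth muscle genes were higher in VSMCs in 12 of 12 cases and 8 of 8 pericyte genes, Ggt1 among them, were higher in mcPCs. Ggt1 is itself a member, and the authors had named several genes of both lists from these same data. These counts are therefore no independent check of the labels. Of 6 mural genes, 2 were higher in mcPCs, 2 in VSMCs and 2 within 2-fold. Over all listed genes the median log2 ratio of mean TPM was -1.72 and that of normalized counts 0.01, and over the 12218 genes with at least 0.8 TPM in VSMCs these medians were -1.88 and -0.11. The authors had removed genes under 0.8 TPM in VSMCs from their final data, an empirical limit they set from markers of unwanted cells. They had also discarded the transcripts most enriched in mcPCs, mainly of erythrocyte genes, which the 12218 genes used here still hold. The value of -1.88 was the one subtracted where TPM ratios are given relative to the median gene. In such bulk samples fewer cells of a type and less RNA per cell cannot be told apart, and what share of any difference below came from erythrocytes or other cells was not tested.

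Of the 58 members, 21 (36.2%) were at least 2-fold higher in mcPCs and 3 (5.17%) at least 2-fold higher in VSMCs, and 34 lay within 2-fold. The same limits were passed by 21.6% of all listed genes towards mcPCs and by 13.8% towards VSMCs. At 2-fold the share of members was thus above the background towards mcPCs and below it towards VSMCs, a description with no test. Among the 12218 genes with at least 0.8 TPM in VSMCs, these limits were passed by 13.0% towards mcPCs and 15.7% towards VSMCs, and by 19 (34.5%) and 3 (5.45%) of the 55 members among them. At 4-fold, 12 of 58 members were higher in mcPCs, against 1758 of 14607 listed genes (12.0%). The same 3 members (5.17%) were higher in VSMCs by 4-fold, close to the background of 824 genes (5.64%). On the uncorrected ratio of mean TPM the split was 8 and 34 members, after scaling counts to equal totals 14 and 8. On TPM ratios taken relative to the median gene it was 22 and 3. Over all listed genes the median log2 ratios on these scales were -1.72, -0.55 and 0.16. The shares of all genes past 2-fold on them were not computed, so these splits cannot be set beside the shares above. On normalized counts the median log2 ratio was 0.31 over the members and 0.01 over all genes. Members ran from -5.76 for Mt1 to 7.70 for Ggt1. Just inside the limit lay Prdx4 (1.03) and Gpx8 (1.08), and just outside it Gstk1 (0.93) and Txnrd1 (-0.99).

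**Figure D1:**
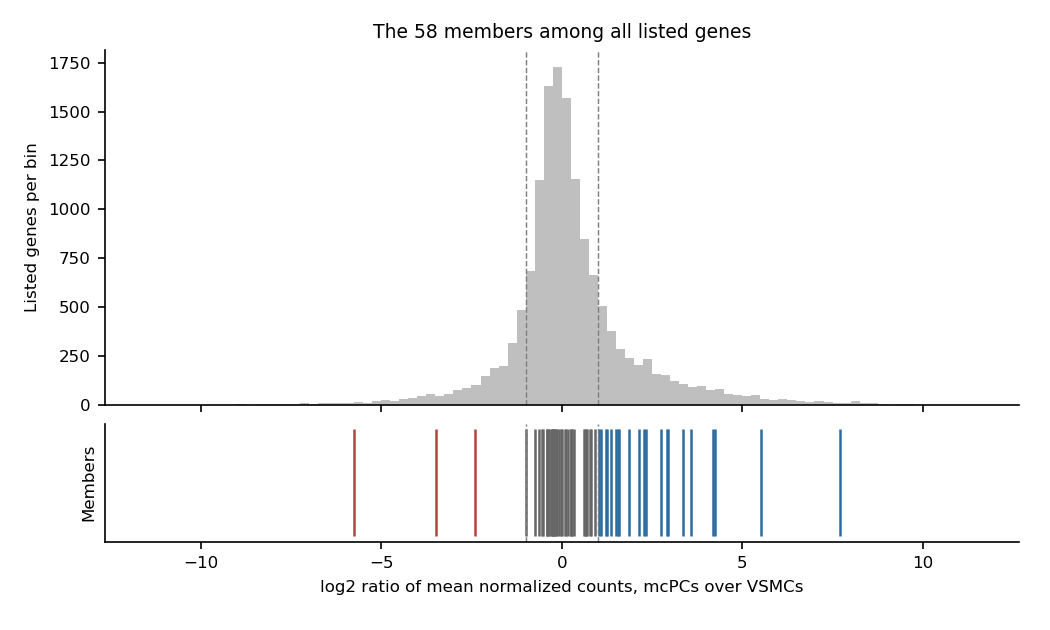
Histogram of the log2 ratio of mean normalized counts, mcPCs over VSMCs, of the 14607 listed genes (upper panel), with each of the 58 members as a vertical line below (blue, at least 2-fold higher in mcPCs; red, in VSMCs; grey, within 2-fold; dashed lines, the 2-fold limits). The 3 red lines are Mt1, Mt3 and Sod2, and the blue line furthest to the right is Ggt1 at 7.70.

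Members were abundant genes in both cell types. Their median TPM was 27.9 in VSMCs and 13.6 in mcPCs, against 12.7 and 3.59 for all listed genes. In VSMCs 38 members, and in mcPCs 50 members, lay above the median gene. The 5 most abundant held 65.6% of the members' TPM in VSMCs and 62.4% in mcPCs, but they were not the same genes. In VSMCs they were Mt1 (1990 TPM), Txn1 (1937), Mt3 (805), Gpx1 (800) and Gstp1 (390). In mcPCs they were Prdx2 (583 TPM), Gstp1 (328), Txn1 (324), Gpx1 (268) and Gpx4 (103). Outside the erythrocyte genes, members made up 0.911% of TPM in VSMCs and 0.572% in mcPCs, and without Mt1 and Mt3 these shares were 0.629% and 0.565%.

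**Figure D2:**
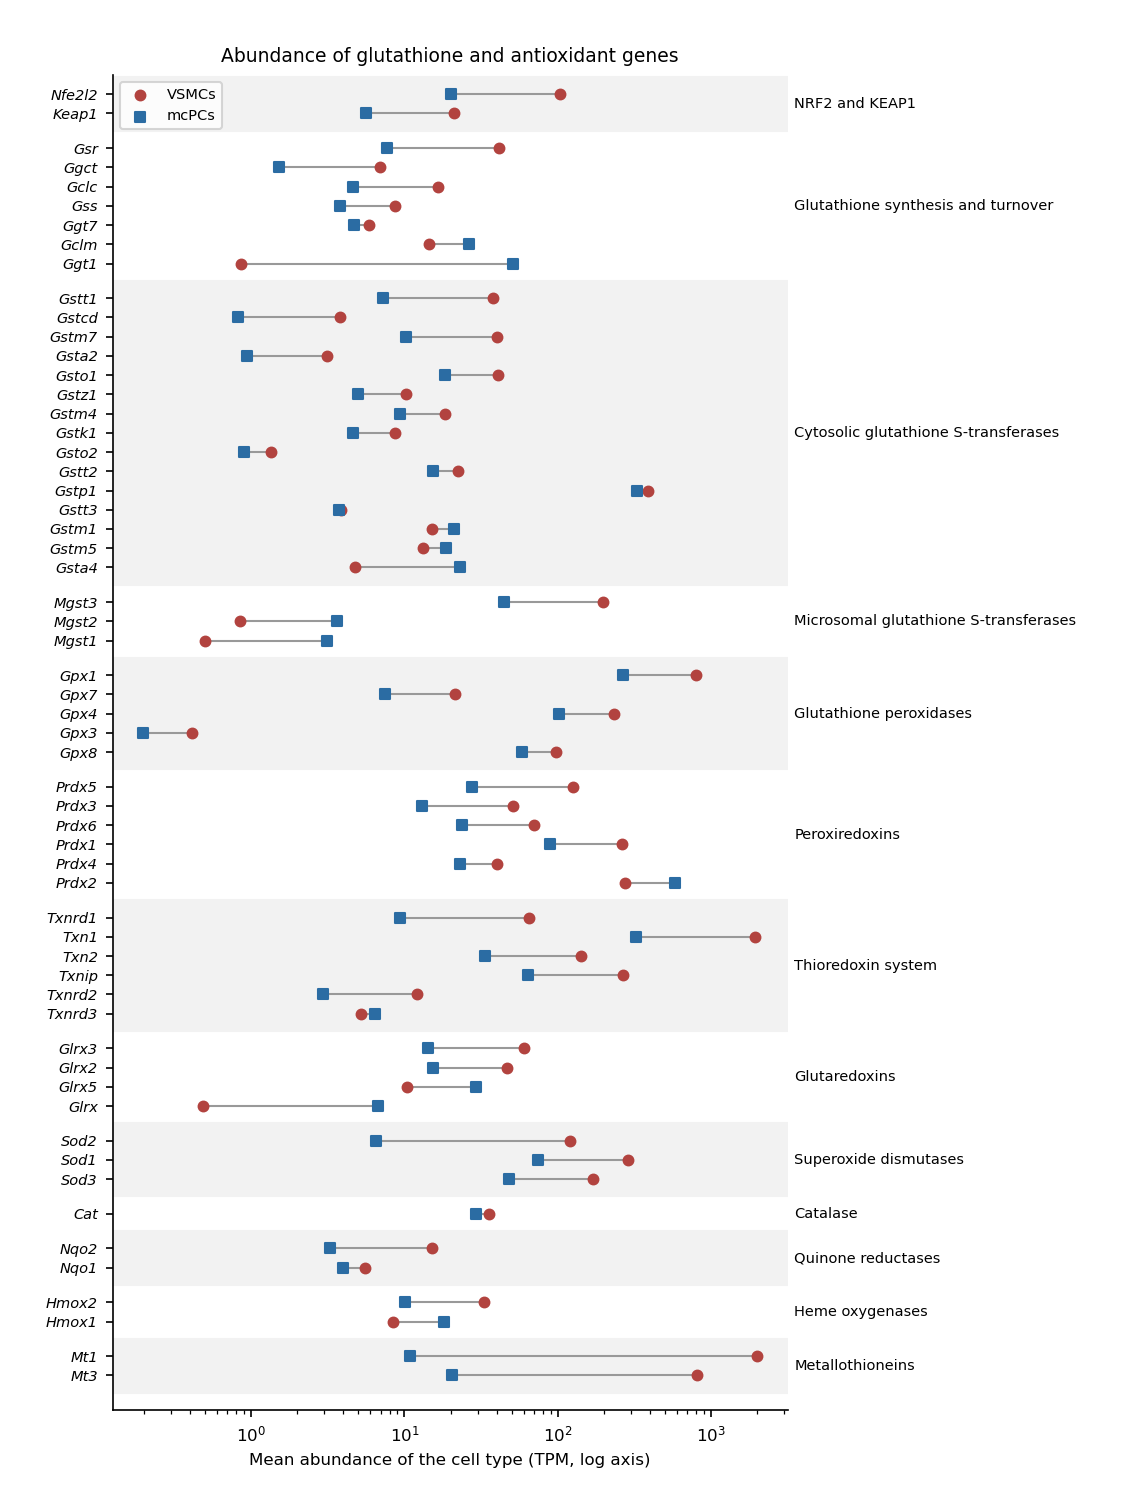
Mean abundance of each member in TPM on a log axis, circles for VSMCs and squares for mcPCs, grouped by family. TPM of most members is lower in mcPCs, where erythrocyte transcripts take 55.0% of the total, and the squares that lie to the right of their circles, such as Ggt1, Glrx, Gsta4 and Prdx2, are higher in mcPCs even so.

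The regulators both lay within 2-fold. Nfe2l2, which encodes NRF2, was at 103 TPM (8794 reads per sample) in VSMCs and 20.3 TPM (3180 reads) in mcPCs, a log2 ratio of normalized counts of -0.53. Keap1, which holds NRF2 in the cytoplasm and marks it for degradation, was at 20.9 and 5.64 TPM, a log2 ratio of -0.09. The TPM of Keap1 relative to Nfe2l2 was 0.203 in VSMCs and 0.278 in mcPCs. Nfe2l2 ranked above 89.8% of listed genes in VSMCs and 87.5% in mcPCs.

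The antioxidant response element is the DNA motif that NRF2 binds with a small MAF protein. Its core, TGACNNNGC, was searched on both strands in the 250 bases upstream of the gene start in the RefSeq promoters of GRCr8, which held 49 of the 58 members. Of these 49 genes, 11 (22.4%) held the core, against 11.0% of all genes of the promoter table and 13.1% of those listed here. By call, the core was found in 3 of 17 genes higher in mcPCs, 2 of 3 higher in VSMCs and 6 of 29 within 2-fold. A match describes letters in the sequence and shows no binding. The sequences below are shown because they come from genes higher in mcPCs (Gclm, Gstm5, Gstp1), within 2-fold (Prdx1, Txnrd1) and higher in VSMCs (Sod2), and the match of Mt1 is described with its promoter. Each is written along the gene's strand with the core in capitals, in reverse complement where it lies on the opposite strand.
Gclm, chr2:213031953-213031981 (+): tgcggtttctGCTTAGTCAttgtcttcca
Gstm5, chr2:198219646-198219674 (+): caaggccaagTGACCACGCggagggcggg
Gstm5, chr2:198219706-198219734 (+): tcagtcgcgtTGACCCCGCccacagcgtc
Gstp1, chr1:210769748-210769776 (-): tccactgtgtTGACTCAGCatccggggcg
Prdx1, chr5:135383761-135383789 (+): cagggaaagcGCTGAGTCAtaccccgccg
Txnrd1, chr7:22755964-22755992 (-): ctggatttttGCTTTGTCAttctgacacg
Sod2, chr1:50050185-50050213 (-): ggcgctgccgGCAGGGTCAgcgcctagct

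Among the 7 genes of glutathione synthesis and turnover, 3 were higher in mcPCs and none in VSMCs. Ggt1 (ENSRNOG00000047697), the cell-surface enzyme that starts the breakdown of extracellular glutathione, was at 0.855 TPM in VSMCs (38.3 reads per sample) and 51.1 TPM in mcPCs (4368 reads). Its log2 ratio was 7.70 [7.43, 7.97], a 207-fold difference. It ranked above 17.0% of listed genes in VSMCs and above 95.4% in mcPCs, so it was among the rarer genes of one cell type and the more abundant of the other. Ggt7, a relative of Ggt1, was at 5.84 TPM (581 reads) and 4.68 TPM (856 reads), a log2 ratio of 1.49, which was -0.31 on the ratio of mean TPM.

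The subunits of glutamate-cysteine ligase, which catalyses the rate-limiting step of synthesis, differed from each other. Gclm (ENSRNOG00000013409), the modifier subunit, was at 14.4 TPM (743 reads per sample) in VSMCs and 26.5 TPM (2543 reads) in mcPCs, a log2 ratio of 2.74 [2.67, 2.80]. Gclc, the catalytic subunit, was at 16.5 TPM and 4.62 TPM, a log2 ratio of -0.02. The TPM of Gclm relative to Gclc was therefore 0.872 in VSMCs and 5.74 in mcPCs, a comparison that does not depend on the scaling between cell types. Gss, the synthetase of the next step, had a log2 ratio of 0.62, Gsr, which recycles oxidised glutathione, -0.63, and Ggct, which acts on γ-glutamyl peptides, -0.41. Gsr held 43.9% of the TPM of the 7 genes in VSMCs and 7.67% in mcPCs, where Ggt1 held 51.2%.

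Of the 15 cytosolic glutathione S-transferases, which conjugate electrophiles to glutathione, 7 were higher in mcPCs and none in VSMCs. The median log2 ratio of the family was 0.93. Gstp1 (ENSRNOG00000018237), the pi class enzyme, held most of the family's TPM in both cell types, 63.5% in VSMCs and 70.2% in mcPCs. It was at 390 TPM (8898 reads per sample) and 328 TPM (13794 reads), a log2 ratio of 1.59, and its ratio of mean TPM was -0.25. Gstp1 was thus abundant in both, and which cell type had more depended on the scale.

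Gsta4 (ENSRNOG00000030449), the alpha class enzyme that acts on products of lipid peroxidation, stood furthest apart, with 4.80 TPM (124 reads per sample) in VSMCs and 23.1 TPM (1125 reads) in mcPCs. Its log2 ratio was 4.19 [4.04, 4.35], 18.3-fold. It was higher in mcPCs on every scale computed, the ratio of mean TPM included (2.24). Of the mu class, Gstm5 was at 13.2 and 18.7 TPM (403 and 1049 reads), a log2 ratio of 2.34. Gstm1 was at 15.1 and 21.1 TPM (567 and 1428 reads), a log2 ratio of 2.28. These 3 genes were the cytosolic transferases with a higher mean TPM in mcPCs.

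In the theta class, Gstt3 was at 3.86 TPM (237 reads) in VSMCs and 3.74 TPM (452 reads) in mcPCs, a log2 ratio of 1.87. Gstt2 was at 22.5 and 15.3 TPM (1032 and 1236 reads), a log2 ratio of 1.27, whereas Gstt1 was at 37.8 and 7.24 TPM, a log2 ratio of -0.56. Of this class, Gstt1 was thus the one on the side of VSMCs. Gsto2, of the omega class, was at 1.35 and 0.898 TPM on few reads (37.4 and 33.6 per sample), a log2 ratio of 1.22 [0.82, 1.62]. Gsto2 was within 2-fold with a pseudocount of 10 (0.97), with erythrocyte genes left out of the scaling (0.77) and with equal totals (0.21). The others lay within 2-fold, at -0.40 for Gstcd, -0.18 for Gstm7, 0.11 for Gsta2, 0.70 for Gsto1, 0.78 for Gstz1, 0.82 for Gstm4 and 0.93 for Gstk1. Reads can be split between near-identical transcripts in this family. Summed over a cell type, the estimated reads were not whole numbers, within 0.01 reads, for 10 of these 15 genes and for 17 of all 58 members. Among the transferases these were Gsta2, Gstcd, Gstm1, Gstm4, Gstm7, Gsto1, Gsto2, Gstp1, Gstt2 and Gstz1, whose values are uncertain to that extent.

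The microsomal transferases form a separate family of membrane proteins, and 2 of 3 were higher in mcPCs. Mgst3 was the abundant one, with 197 TPM in VSMCs and 44.8 TPM in mcPCs, a log2 ratio of -0.30. Mgst1 was at 0.502 TPM (14.3 reads per sample) and 3.12 TPM (168 reads), a log2 ratio of 4.25 [3.80, 4.74]. In VSMCs Mgst1 was below the authors' limit of 0.8 TPM, and the part of other cells in its value was not tested. Mgst2 was at 0.846 TPM (6 reads) and 3.61 TPM (46 reads), a log2 ratio of 3.59 [2.87, 4.38]. Mgst1 and Mgst2 were rare in VSMCs, and their combined place in the family stayed small, since Mgst3 still held 86.9% of its TPM in mcPCs against 99.3% in VSMCs.

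Of the 5 glutathione peroxidases, 1 was just past 2-fold towards mcPCs. Gpx1, the cytosolic enzyme, was at 800 TPM (21590 reads per sample) in VSMCs and 268 TPM (13254 reads) in mcPCs, a log2 ratio of 0.26. Gpx4, which reduces lipid hydroperoxides in membranes and guards against ferroptosis, was at 232 and 103 TPM (6342 and 5121 reads), a log2 ratio of 0.66. Both ranked among the most abundant genes, and the TPM of Gpx1 relative to Gpx4 was 3.46 and 2.61. Gpx8, a peroxidase of the endoplasmic reticulum, was at 97.6 and 58.2 TPM (3405 and 3716 reads), and its log2 ratio of 1.08 was just over the limit, but -0.74 on the ratio of mean TPM. Gpx7 had a log2 ratio of 0.35, and Gpx3, the secreted form, was near the floor of the table at 0.413 and 0.198 TPM (19.7 and 19 reads), 0.67 [0.12, 1.22].

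Of the 6 peroxiredoxins, which reduce peroxides through a reactive cysteine, 2 were higher in mcPCs, and Prdx2 (ENSRNOG00000003520) was the one furthest apart. It was at 276 TPM (7518 reads per sample) in VSMCs and 583 TPM (29323 reads) in mcPCs, a log2 ratio of 2.94 [2.92, 2.96], 7.67-fold, and it was the most abundant member in mcPCs. Prdx1, the other abundant cytosolic peroxiredoxin, was at 261 and 89.3 TPM, a log2 ratio of 0.28. The TPM of Prdx2 relative to Prdx1 was 1.06 in VSMCs and 6.52 in mcPCs, and Prdx2 held 33.6% and 76.7% of the family's TPM. Prdx2 is one of the main proteins of red blood cells, and the erythrocyte genes given above were higher in the same samples. The part of erythrocyte RNA in this difference was not tested. Prdx4, the form of the endoplasmic reticulum, was at 40.0 and 23.1 TPM (1149 and 1213 reads), a log2 ratio of 1.03 that was -0.79 on the ratio of mean TPM. The mitochondrial forms Prdx3 and Prdx5 were at -0.15 and -0.36, and Prdx6 at 0.26.

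**Figure D3:**
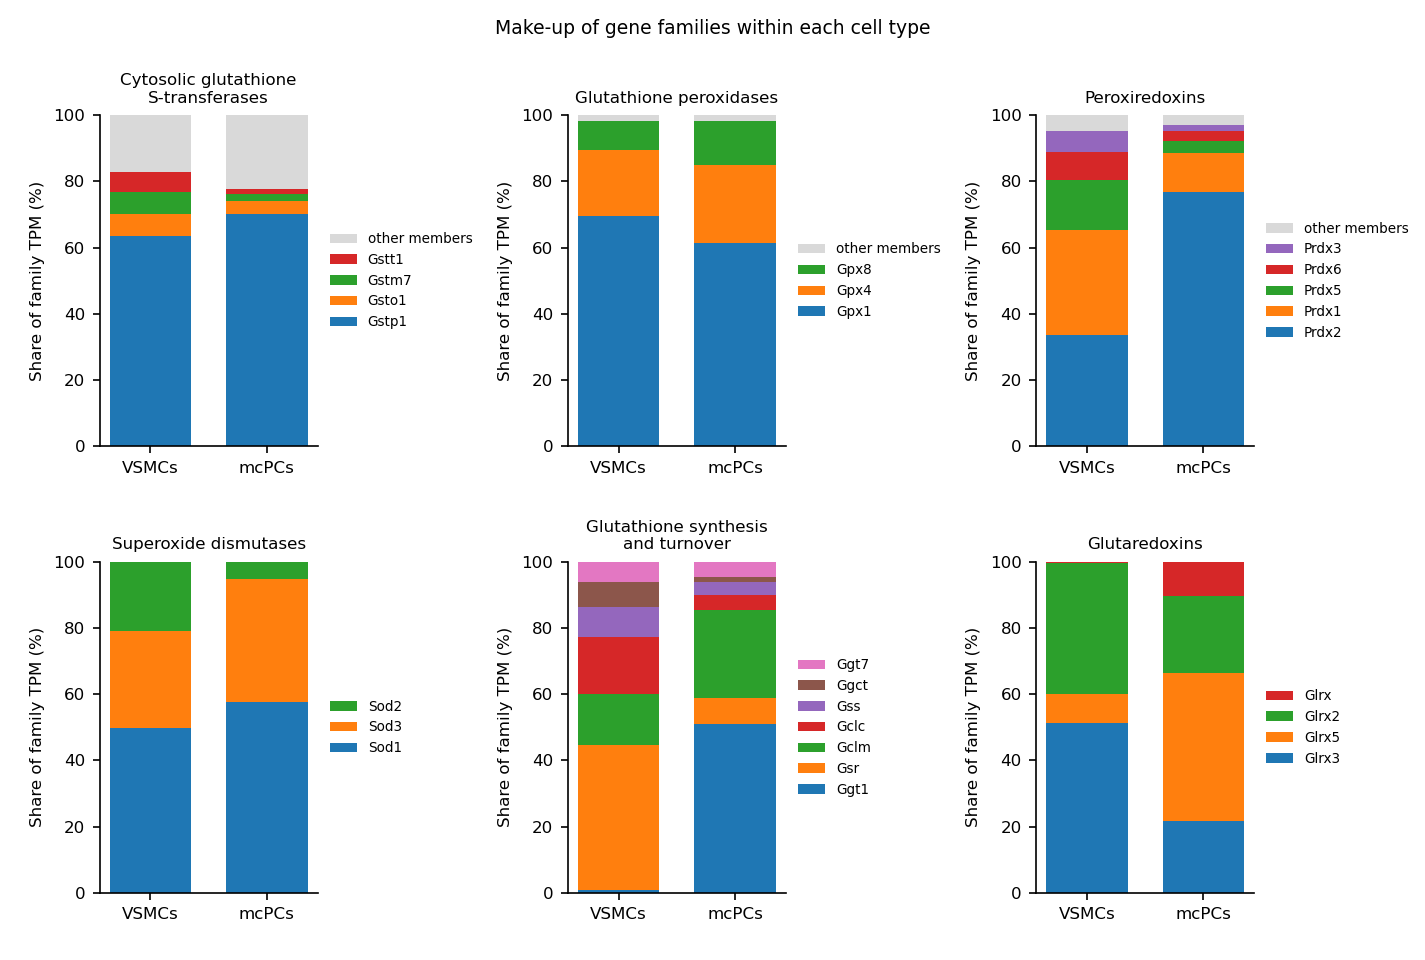
Share of each gene in the summed TPM of its family, in percent, for VSMCs (left bar) and mcPCs (right bar) of 6 families. The shares do not depend on the scaling between cell types, and Prdx2 goes from 33.6% to 76.7% of the peroxiredoxins, Sod2 from 20.9% to 5.03% of the superoxide dismutases and Ggt1 from 0.901% to 51.2% of the genes of glutathione synthesis and turnover.

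In the thioredoxin system 1 of 6 genes was higher in mcPCs and none in VSMCs. Txn1, the cytosolic thioredoxin, was at 1937 TPM (8803 reads per sample) in VSMCs and 324 TPM (2688 reads) in mcPCs, a log2 ratio of -0.74. Its effective length was only 110 bases, so its high TPM rests on fewer reads than that of Gpx1. Txnip, the inhibitor of thioredoxin, was at 265 and 63.8 TPM (27467 and 12096 reads), a log2 ratio of -0.25. The mitochondrial partners Txn2 and Txnrd2 were at -0.25 and -0.21.

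The thioredoxin reductases, which keep thioredoxin reduced with NADPH, lay on opposite sides. Txnrd1, the cytosolic reductase, was at 64.6 TPM (8417 reads) in VSMCs and 9.30 TPM (2222 reads) in mcPCs, a log2 ratio of -0.99, just within 2-fold. Txnrd3 (ENSRNOG00000059810), a reductase that also carries a glutaredoxin domain, was at 5.22 TPM (543 reads) and 6.43 TPM (1234 reads), a log2 ratio of 2.13. The TPM of Txnrd3 relative to Txnrd1 was 0.0808 in VSMCs and 0.692 in mcPCs.

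Of the 4 glutaredoxins, which reduce protein disulfides with glutathione or carry iron-sulfur clusters, 2 were higher in mcPCs. Glrx (ENSRNOG00000012183), the cytosolic enzyme, was at 0.484 TPM (20.3 reads per sample) in VSMCs and 6.77 TPM (532 reads) in mcPCs, a log2 ratio of 5.51 [5.14, 5.90], 45.4-fold. In VSMCs Glrx was below the authors' limit of 0.8 TPM, and the part of other cells in its value was not tested. Glrx5 (ENSRNOG00000004206), the mitochondrial protein of iron-sulfur cluster assembly that heme synthesis needs, was at 10.4 TPM (825 reads) and 29.1 TPM (4259 reads), a log2 ratio of 3.35. Glrx2 and Glrx3 were at 0.17 and -0.27. The make-up of the family was therefore different in the cell types. Glrx3 held 51.3% of its TPM in VSMCs and 21.8% in mcPCs, whereas Glrx5 held 8.84% and 44.5%. Glrx5 serves red cell formation, and the erythrocyte genes were higher in the same samples. Their part in this value was not tested.

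Of the 3 superoxide dismutases, the mitochondrial enzyme was higher in VSMCs and the other two lay within 2-fold. Sod2 (ENSRNOG00000019048) was at 121 TPM (9086 reads per sample) in VSMCs and 6.49 TPM (899 reads) in mcPCs, a log2 ratio of -2.40 [-2.46, -2.34], 5.28-fold higher in VSMCs. Sod1, the cytosolic copper-zinc enzyme, was at 288 and 74.5 TPM, a log2 ratio of -0.14. Sod3, the extracellular form, was at 171 and 48.1 TPM, a log2 ratio of 0.01. The TPM of Sod2 relative to Sod1 was 0.420 in VSMCs and 0.0872 in mcPCs, while that of Sod3 relative to Sod1 was 0.591 and 0.645. Sod2 ranked above 91.4% of listed genes in VSMCs and above 65.5% in mcPCs.

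Cat, catalase, was at 35.8 TPM (3384 reads per sample) in VSMCs and 29.4 TPM (5165 reads) in mcPCs, a log2 ratio of 1.56 that was -0.28 on the ratio of mean TPM. Catalase is abundant in red blood cells, and the part of the higher erythrocyte genes in this value was not tested. Its TPM relative to Gpx1 was 0.0448 and 0.110.

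The inducible forms of the quinone reductases and heme oxygenases were higher in mcPCs and their partners were not. Hmox1 (ENSRNOG00000014117), the stress-induced heme oxygenase, was at 8.44 TPM (454 reads per sample) in VSMCs and 18.2 TPM (1839 reads) in mcPCs, a log2 ratio of 2.92, 7.55-fold. Hmox2, the constitutive form, was at 33.3 and 10.2 TPM, a log2 ratio of 0.10. The TPM of Hmox1 relative to Hmox2 was 0.254 in VSMCs and 1.79 in mcPCs, so the order of these genes was reversed. Nqo1, a classical NRF2 target, was at 5.51 TPM (307 reads) and 4.00 TPM (405 reads), a log2 ratio of 1.36 that was -0.45 on the ratio of mean TPM. Nqo2 was at 15.2 and 3.27 TPM, a log2 ratio of -0.39, and the TPM of Nqo1 relative to Nqo2 was 0.364 and 1.22. Microglial and leukocyte genes, whose summed TPM was 2.36 in VSMCs and 205 in mcPCs, were higher in the same samples as Hmox1. Their part in it was not tested.

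**Figure D4:**
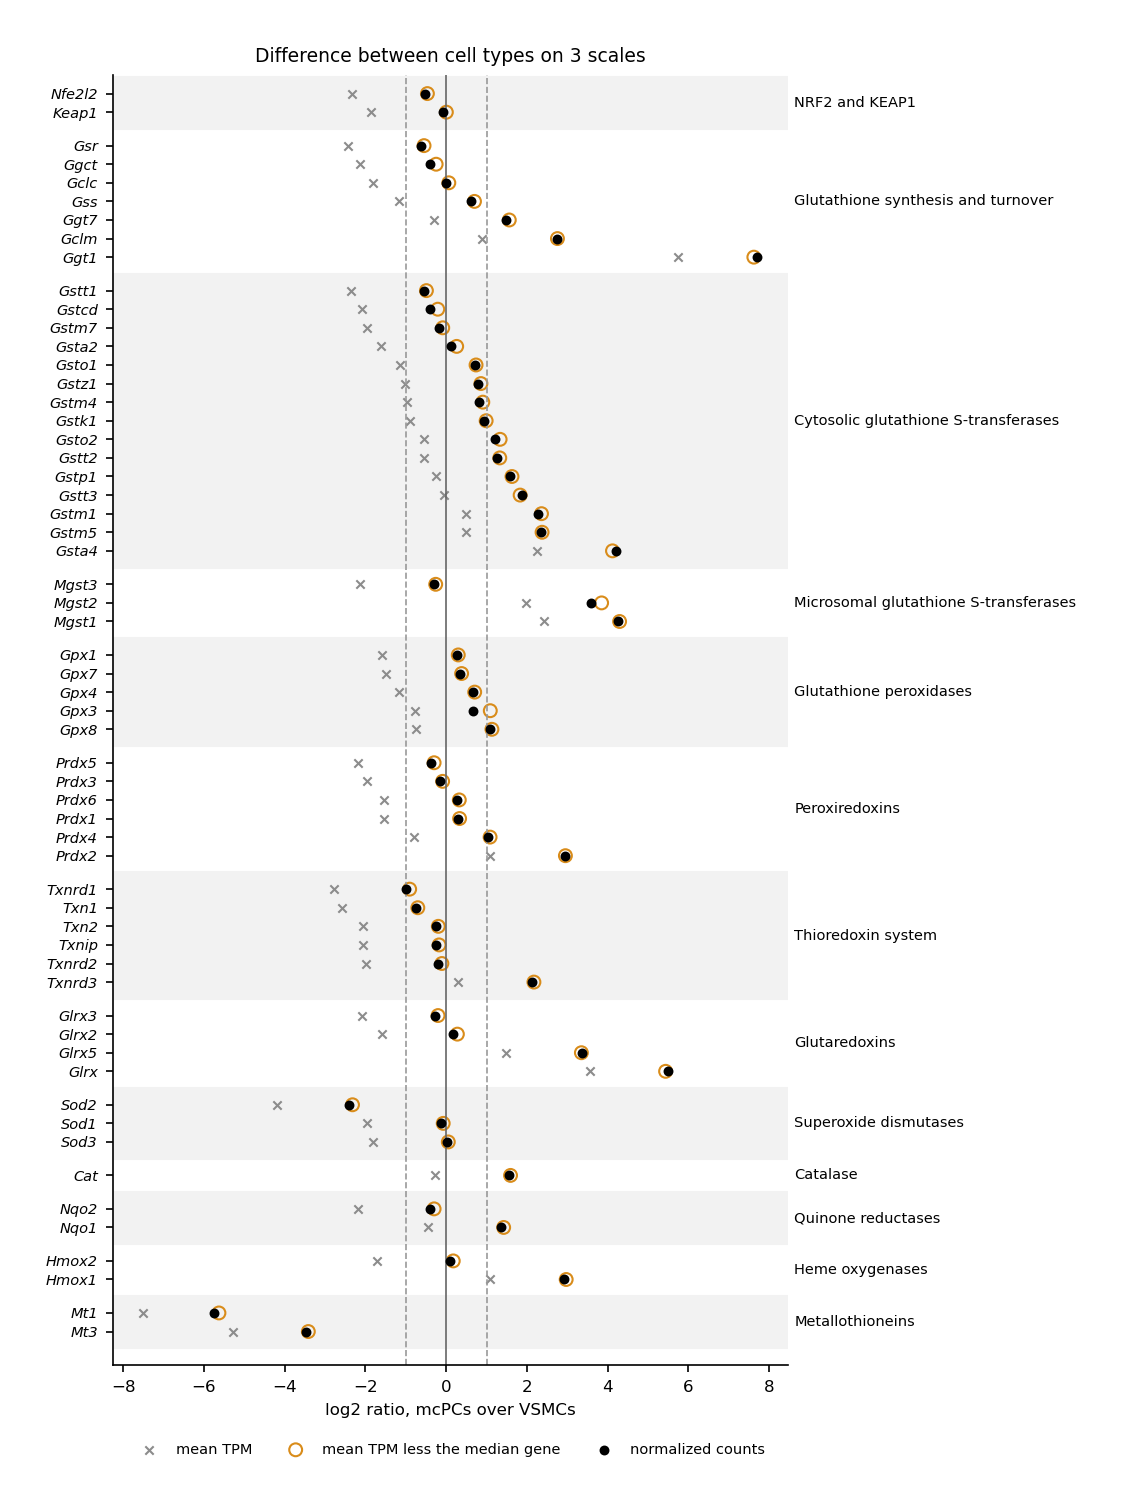
Log2 ratio of each member, mcPCs over VSMCs, by mean normalized counts (black), by mean TPM (grey crosses) and by mean TPM less the median gene (open orange circles), with dashed lines at 2-fold. Black and orange symbols lie close together for most members, and the grey crosses lie to their left, so that Gstp1, Cat and Nqo1 change side. The value subtracted for the orange circles is -1.88, the median over the 12218 genes with at least 0.8 TPM in VSMCs.

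Metallothioneins are small cysteine-rich proteins that bind zinc and copper and scavenge oxidants, and both members were higher in VSMCs. Mt1 (ENSRNOG00000038047) was at 1990 TPM (14485 reads per sample) in VSMCs and 10.8 TPM (141 reads) in mcPCs, a log2 ratio of -5.76 [-5.90, -5.62], 54.2-fold. Mt3 (ENSRNOG00000018958), the form best known from brain, was at 805 TPM (6732 reads) and 20.4 TPM (311 reads), a log2 ratio of -3.48 [-3.57, -3.38], 11.1-fold. Both differences kept their direction on every scale computed, with ratios of mean TPM less the median gene of -5.63 and -3.42. In VSMCs Mt1 was the most abundant member, above 99.7% of listed genes, and in mcPCs it was above 77.5%. The TPM of Mt1 relative to Mt3 was 2.47 in VSMCs and 0.530 in mcPCs, so that Mt3 was the more abundant in mcPCs. Mt2A, which the rule did not take in and which was looked up after these values were seen, was at 1299 TPM (9020 reads) and 5.34 TPM (65.4 reads), a log2 ratio of -6.14. Effective lengths of 182 bases for Mt1 and 206 for Mt3 add to their TPM. Astrocytes also express Mt1 and Mt3. Of 8 astrocyte genes, 6 were higher in mcPCs and none in VSMCs, with log2 ratios from 0.16 for Aldoc to 7.10 for Slc1a3. Their summed TPM of 1093 in VSMCs and 585 in mcPCs was mostly that of Atp1b2 (789 and 349) and Glul (289 and 214). The part of astrocyte RNA in the values of Mt1 and Mt3 was not tested.

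Metallothionein genes carry metal response elements, which bind the zinc-sensing factor MTF1. Their core was searched as TGCACNC or TGCGCNC on both strands of the same windows. It was present upstream of 16 of the 49 members (32.7%), against 22.5% of all genes of the promoter table and 32.2% of those listed here. Mt1 held 6 matches, a number that 0.0269% of all promoters and 0.0408% of those of listed genes reached. Mt3 held 3, which 1.17% and 2.27% reached. Gsta4, higher in mcPCs, also held 3. The 250 bases upstream of Mt1 (chr19:10832976-10833225, minus strand) and of Mt3 (chr19:10856081-10856330, minus strand) of GRCr8 are printed along the gene's strand, because these genes were the members most in favour of VSMCs, with the matches in capitals.
Mt1: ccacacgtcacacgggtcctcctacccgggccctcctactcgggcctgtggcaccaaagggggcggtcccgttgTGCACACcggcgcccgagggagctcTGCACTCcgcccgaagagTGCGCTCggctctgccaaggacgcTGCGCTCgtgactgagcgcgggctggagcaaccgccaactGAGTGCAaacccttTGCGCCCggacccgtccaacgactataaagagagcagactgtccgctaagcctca
Mt3: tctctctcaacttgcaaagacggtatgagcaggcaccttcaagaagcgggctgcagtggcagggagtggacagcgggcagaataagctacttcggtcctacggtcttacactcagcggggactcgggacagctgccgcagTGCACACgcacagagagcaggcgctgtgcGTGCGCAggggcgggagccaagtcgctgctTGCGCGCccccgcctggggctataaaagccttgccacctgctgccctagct
The same window of Mt1 also held a match to the core of the antioxidant response element, 101 bases before the gene start, which did not overlap the matches in capitals.

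The genes that supply or surround these enzymes lay in both directions. Over all 14607 genes, 21.6% were higher in mcPCs and 13.8% in VSMCs. The counts of this list and of those that follow stand beside these shares, and no list was tested. Of 20 genes listed for the supply of cystine, cysteine and NADPH, 4 were higher in mcPCs and 4 in VSMCs. Me1, malic enzyme, was at 28.0 TPM (2711 reads per sample) in VSMCs and 0.808 TPM (135 reads) in mcPCs, a log2 ratio of -3.43. Idh2, mitochondrial isocitrate dehydrogenase, was at 219 and 16.6 TPM, -1.92, and Nnt, the mitochondrial transhydrogenase, at 24.7 and 2.82 TPM, -1.34. These 3 genes all make NADPH, and all were higher in VSMCs. Chac1, which degrades glutathione inside the cell, was at 2.73 and 0.185 TPM, -2.04. On the other side, Cbs, of cysteine synthesis from homocysteine, was at 16.1 and 34.4 TPM, 2.89. Anpep, the aminopeptidase that cleaves the dipeptide left by γ-glutamyl transferase and a marker of mural cells, was at 74.7 and 138 TPM, 2.72. Slc6a6, the taurine transporter, had a log2 ratio of 1.59 and Nadk2, the mitochondrial NAD kinase, 1.22. On the ratio of mean TPM Slc6a6 and Nadk2 were at -0.17 and -0.53. Slc7a11, the cystine transporter, was at 0.866 and 0.312 TPM, a log2 ratio of 0.35.

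Of 14 partners and controls of NRF2, 2 were higher in mcPCs and 3 in VSMCs. The small MAF proteins Mafk and Maff, with which NRF2 pairs, were at 496 and 104 TPM in VSMCs and 17.5 and 3.51 TPM in mcPCs, log2 ratios of -3.02 and -3.10. Nfe2l1, a relative of NRF2, was at 164 and 12.8 TPM, -1.87. Mafg, another small MAF gene, was within 2-fold, at 40.9 and 6.45 TPM, -0.87. Whether these values bear on those of the members was not tested. Nfe2, the relative of NRF2 found in the erythroid and megakaryocytic lineages, was at 0.135 TPM (8 reads per sample) in VSMCs and 17.1 TPM (1842 reads) in mcPCs, 8.59. Nfe2l3 was at 0.179 and 0.146 TPM on few reads (12 and 18.7), 1.40, which was -0.18 on the ratio of mean TPM. In VSMCs Nfe2 and Nfe2l3 were below the authors' limit of 0.8 TPM, and the part of other cells in their values was not tested.

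Of 10 genes of heme and iron handling, 6 were higher in mcPCs and none in VSMCs. Ftl1, the ferritin light chain, was at 709 TPM (20270 reads per sample) and 1615 TPM (85234 reads), a log2 ratio of 3.05. Slc40a1, the iron exporter ferroportin, was at 1.69 and 6.54 TPM, 3.77. Blvrb, biliverdin reductase B, was at 26.5 and 27.5 TPM, 1.89, and Fech, the last enzyme of heme synthesis and itself on the erythrocyte list, at 13.4 and 53.9 TPM, 3.87. These genes therefore stood on the same side as Hmox1 and as the erythrocyte genes.

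Of 13 genes of oxidant production, 6 were higher in mcPCs and 1 in VSMCs. Xdh, xanthine dehydrogenase, was at 0.0799 and 1.13 TPM, a log2 ratio of 5.44. The NADPH oxidase genes of phagocytes Cybb (0.226 and 2.13 TPM, 4.95) and Ncf1 (2.72 and 3.59 TPM, 2.14) were on the same side as the microglial and leukocyte genes. Maob, monoamine oxidase B, was at 0.110 and 0.940 TPM, 4.69, and Duox2 was at 0.231 and 0.0129 TPM, -2.16, a direction that turned on TPM ratios relative to the median gene (0.32). All 5 of these genes were low in TPM.

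Of 24 rows of other repair and scavenging genes, 4 were higher in mcPCs and 2 in VSMCs, no excess over the 21.6% and 13.8% of all genes. Ucp2, a mitochondrial carrier, was at 5.60 TPM (321 reads per sample) and 418 TPM (44178 reads), a log2 ratio of 8.05. Osgin1, an oxidative stress response gene, was at 0.162 TPM (12 reads) and 6.83 TPM (916 reads), 7.04. In VSMCs Osgin1 was below the authors' limit of 0.8 TPM, and the part of other cells in its value was not tested. Hagh, of the glyoxalase pathway, was at 34.5 and 80.5 TPM, 3.07. Pon2 was at 57.7 and 53.4 TPM, 1.72, which was -0.11 on the ratio of mean TPM. The methionine sulfoxide reductases Msrb3 and Msrb1 were at 94.97 and 111 TPM in VSMCs and 2.21 and 10.1 TPM in mcPCs, log2 ratios of -3.60 and -1.65.

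Of 10 genes of metal sensing and transport, 3 were higher in mcPCs and 1 in VSMCs. Slc30a10, a manganese exporter, was at 29.5 and 96.0 TPM, a log2 ratio of 3.52. Slc39a14, a carrier that takes up zinc, iron and manganese, was at 20.5 and 1.82 TPM, -1.67, on the same side as the metallothioneins. Slc39a10, a zinc importer, was at 8.56 and 5.63 TPM, 1.22. Atp7b, a copper pump, was at 0.117 and 0.0798 TPM on few reads (26.2 and 34.1 per sample), 1.17. On the ratio of mean TPM these 2 genes were at -0.60 and -0.27.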

How the data were processed

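Messenger RNA of 3 VSMC and 3 mcPC samples had been sequenced in 4 runs per library from stranded poly(A)+ libraries. The authors trimmed and filtered reads with Eoulsan, estimated abundance against Ensembl cDNA of Rnor_6.0 with Salmon 0.8.0 and used tximport to sum it per gene. Genes lacking a read in any sample were left out, and DESeq2 gave the normalization. The deposited TPM values are the authors' means of each cell type. The deposited estimated counts were taken as means per run and multiplied by 4 to give reads per sample. Their sums over 12 runs came out whole, within 0.01 reads, for 69.8% of genes in VSMCs and 71.5% in mcPCs. The deposited normalized counts are a signal, the counts divided by the authors' normalization factors, which correct for effective length and depth. The table also holds the authors' own comparison (log2 fold change, standard error and p-values), which was not used here.

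Members and lists were chosen with earlier results of these data known, and every member is named. From the pathway lists, genes at least 2-fold apart are named, up to 4 in each direction, with 10 or more reads per sample in the higher cell type. Slc7a11 and Mafg were added after their values were seen. Members with the fullest values are those at least 2-fold apart and the 5 most abundant in each cell type. Since the table has no values per sample, the differences have no replicate check. They were computed as log2 ratios of mean normalized counts with a pseudocount of 1 (0.1 for TPM), and the background is the share of all listed genes past the same fold. Intervals are 95% binomial intervals of the summed reads (exact) and cover counting error only. Steps were tested on simulated data. Promoter sequences are those of RefSeq for GRCr8, another build than the authors', and genes were matched to them by Entrez gene identifier. Alternatives were no pseudocount, a pseudocount of 10, other scalings, filters at 0.8 TPM or 10 reads, and leaving out 6 alpha and mu class transferases. The scripts ran in Python 3.11.15 with pandas 2.3.3, numpy 2.4.6, matplotlib 3.10.9 and scipy 1.17.1.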

Additional observations from a re-analysis of the deposited data

How the results depend on the processing

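No paired analysis was possible because the table gives only the mean of each cell type, and no sample could be left out in turn. The 21 members higher in mcPCs became 8 on the ratio of mean TPM, and lay between 14 and 22 under every other scaling, pseudocount and filter. The 3 members higher in VSMCs became 34 on the ratio of mean TPM and 8 after scaling counts to equal totals, and were 3 under every other alternative. All 24 called members kept their direction under each other pseudocount and scaling except the ratio of mean TPM, where 9 changed it, with log2 ratios of -0.31 for Ggt7, -0.54 for Gsto2, -0.25 for Gstp1, -0.55 for Gstt2, -0.046 for Gstt3, -0.74 for Gpx8, -0.79 for Prdx4, -0.28 for Cat and -0.45 for Nqo1. On that scale the median of all listed genes was -1.72, erythrocyte genes held 55.0% of TPM in mcPCs, and the cause of the shift was not tested. With equal totals the median of all listed genes was -0.55, and on neither scale was the share of all genes past 2-fold computed. Gsto2 was within 2-fold with a pseudocount of 10 (0.97), with counts scaled without erythrocyte genes (0.77) and with equal totals (0.21), and with equal totals so were Ggt7 (0.93), Gstt2 (0.63), Gpx8 (0.49), Prdx4 (0.45), Cat (0.98) and Nqo1 (0.77). On the ratio of mean TPM, Gclm (0.88), Gstm1 (0.48), Gstm5 (0.50) and Txnrd3 (0.30) kept their direction within 2-fold. With genes under 0.8 TPM in VSMCs left out, 19 of 55 members (34.5%) were higher in mcPCs, against 13.0% of 12218 genes. Depth limits Mgst2 (6 reads per VSMC sample), Mgst1, Gpx3, Gsto2 and Glrx most.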
